A study of Homo sapiens with 4 samples.

Results

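Described here are 6 annotated genes taken as members of the imprinted PEG3 locus on human chromosome 19. They are PEG3, ZIM2, ZIM2-AS1, ZIM3, USP29 and MIMT1. The NRSF/REST binding sites that lay in them or within 10 kb are described with them. The locus was chosen by a measured value, the width of its sites: it holds the widest NRSF/REST site called at basal SF-1 dosage. The width of that site is therefore given as a description. Of 64449 annotated genes 6 were members, and 7 of 5323 sites at basal SF-1 dosage and 7 of 5059 sites at increased SF-1 dosage belonged to the locus. NRSF/REST binding was mapped by ChIP-seq in H295R/TR SF-1 cells. This subclone derives from H295R, a human adrenocortical carcinoma line, and doxycycline switches on additional SF-1 in it, the nuclear receptor that controls steroid production. Both libraries came from this subclone and from the same anti NRSF/REST antibody. Cells at basal SF-1 dosage received no doxycycline, and cells at increased dosage received it for 3 days before fixation. There was 1 library per dosage, so a difference between dosages has no replicate check and no test was made. The 2 input DNA libraries were not analysed here.

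NRSF/REST is a zinc finger repressor that recognizes a long DNA element and recruits corepressor complexes, and it is known for silencing neuronal genes outside the nervous system. At an imprinted locus the maternal and paternal copies of a gene are expressed unequally. PEG3, which encodes a large zinc finger protein, is the best known paternally expressed gene of its locus. ZIM2 shares its 5′ end with PEG3. MIMT1 is a non-coding gene that starts close to the 5′ end of PEG3 on the opposite strand. USP29 encodes a ubiquitin-specific protease, ZIM3 encodes a KRAB zinc finger protein, and ZIM2-AS1 is a long non-coding RNA gene antisense to ZIM2. The lists of sites do not separate the parental copies, and imprinting was not measured.

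The widest site lay in an intron of ZIM2-AS1 at chr19:57149001-57151449 (hg19). It was searched, like all other sequence here, for the NRSF/REST consensus CTGTCCNNGGTGCTG, of which 13 bases are fixed and 2 are free, on both strands and with at most 2 mismatches. The site held 5 matches. They are shown because no other site of the basal list was as wide, and each runs 5′ to 3′ in the direction of the consensus, with the match in capitals and its neighbouring bases in lower case.
chr19:57149489-57149509, minus strand: ggggCTGTCCGTGGTGCTGaa
chr19:57149534-57149554, minus strand: tgagCTGTCTGCGGTGCTGaa
chr19:57149585-57149605, minus strand: ggggCTATCCGTGGTGCTGaa
chr19:57149648-57149668, minus strand: ggggCTGCCTGTGGTGCTGaa
chr19:57150776-57150796, plus strand: tgctCTGTCCATGGTGCTGaa
The first and the last of these had no mismatch. Substitutions are written as the base of the consensus, its position (the first consensus base is position 1), and the base found. The second match carried C6T, the third G3A, and the fourth T4C and C6T.

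Farther along ZIM2-AS1, 5 more sites at basal SF-1 dosage formed a row, and each held exactly 1 match, all on the plus strand. They are shown because they are the matches of the row; 4 of the 5 also lay in a site at increased dosage.
chr19:57204783-57204803: tgacCTGTCCATGGTGTTGaa
chr19:57217483-57217503: aggcCTGTCCATGGTGCTGaa
chr19:57229788-57229808: cgacCTGTCCATGGTTCTGaa
chr19:57233289-57233309: agacCTGTCCATGGTGCTAaa
chr19:57244524-57244544: agatCTGTCCGTGGTCCTGaa
The second of them had no mismatch. The others each carried 1 mismatch, which was C13T, G12T, G15A and G12C from the lowest to the highest coordinate. Beyond the row, the gene holds 6 further matches, of which 0 lay in a site at either dosage. The 1 among them that is followed by AA, as the matches of the row are, was chosen for display after the sequences had been seen, and it carried G3A and T11G.
chr19:57265602-57265622: aaagCTATCCTTGGGGCTGaa

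Across both lists, site boundaries fell on steps of 50 bp, the median width was 299 bp at each dosage, and the score was 1000 for every site, so that binding strength cannot be read from it. The order number given to each site followed its width closely, with Spearman's rho across sites of -0.947 at basal and -0.951 at increased dosage, given as a description. Read counts are not part of the lists, so the depth behind each site is unknown. Chromosome 19 carried 4.18 sites per Mb at basal and 3.99 at increased dosage, against 1.72 and 1.63 per Mb in the genome.

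ZIM2-AS1 was the member that held most of the sites. It spans chr19:57106681-57310970 on the plus strand, over 204.3 kb, and 6 sites lay in it at each dosage. USP29 (chr19:57630506-57643294, plus strand) held 1 site at each dosage. ZIM3 (chr19:57645464-57656570, minus strand) held none, and the USP29 site lay 9.82 kb from its end, just inside the reach of 10 kb. PEG3 (chr19:57321445-57352096, minus strand), ZIM2 (chr19:57285915-57352099, minus strand) and MIMT1 (chr19:57352234-57359924, plus strand) held none within this reach. Thus 3 of the 6 members had a site at each dosage, where 8.48% of all annotated genes did at basal dosage and 8.05% at increased dosage. Because the locus was chosen for one of these sites, nothing is read from this count. Among the 249 zinc finger genes of chromosome 19 with a symbol beginning in ZNF, 13 had a site at each dosage, which is 5.22% at basal and 5.22% at increased dosage.

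The 5′ end of PEG3 and that of ZIM2 had no called site nearby. The nearest site to either lay 102.1 kb away at both dosages. For the gene bodies the nearest sites were closer, at 76.6 kb from PEG3 and 41.07 kb from ZIM2, and in both cases this was the last site of the ZIM2-AS1 row. MIMT1 was 94.28 kb from its nearest site, a narrow intergenic one on the side away from PEG3. The nearest site outside the reach of a member was another intergenic one, 49.61 kb from USP29.

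**Figure D1:**
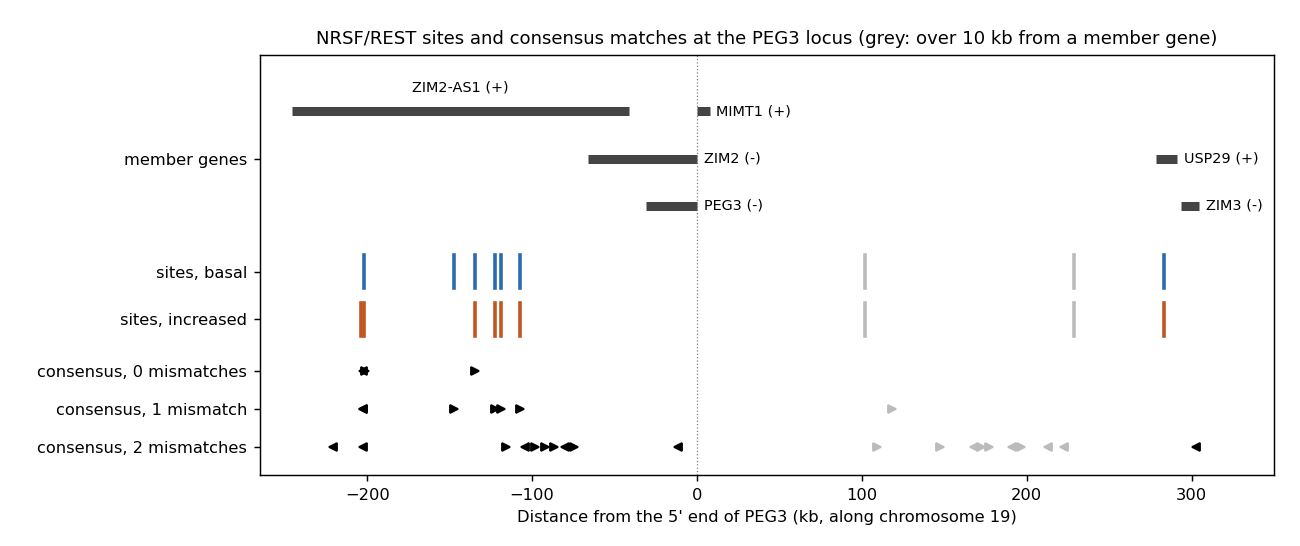
Map of the locus by distance along chromosome 19 from the 5′ end of PEG3 (kb), with the 6 member genes as bars and their strand in brackets, the called sites at each dosage as vertical ticks, and consensus matches as arrowheads by number of mismatches. The coloured sites crowd into ZIM2-AS1, 1 lies in USP29, and none lies in PEG3, ZIM2, MIMT1 or ZIM3; grey marks lie more than 10 kb from every member.

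The widest site measured 2449 bp at basal SF-1 dosage, where its order number was 1. At increased dosage it spanned chr19:57149001-57151349, measured 2349 bp and had order number 2. The next widest sites of the basal list, on chromosomes 22 and 9, measured 1849 bp each. At increased dosage a site on chromosome 9 shared the width of 2349 bp but had order number 113. The site is intronic in ZIM2-AS1, the only member within 10 kb of it, and lies between coding genes that are not members. Its centre at basal dosage lay 201871 bp from the 5′ end of PEG3. SMIM17 starts 3.08 kb beyond the site, and ZNF71 ends 11.15 kb before it.

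The matches within the widest site were not spread evenly. Of its 5 matches, 4 lay on the minus strand within 174 bp, with steps of 45, 51 and 63 bp between their starts, and the last lay alone on the plus strand 1115 bp farther on. The stretch with the 4 matches is printed whole, from the minus strand, with the matches in capitals, so that their spacing can be seen.
chr19:57149481-57149674, minus strand: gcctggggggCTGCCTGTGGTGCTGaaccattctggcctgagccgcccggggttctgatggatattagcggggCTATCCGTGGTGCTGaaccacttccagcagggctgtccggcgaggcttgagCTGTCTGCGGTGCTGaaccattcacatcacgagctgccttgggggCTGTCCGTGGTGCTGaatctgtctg
With 3 mismatches allowed the site held 10 matches, 9 of them on the minus strand between 57149427 and 57149772. Consecutive starts among these 9 were 12 to 108 bp apart, and steps of 31 to 33 bp occurred 5 times. Relative to the centre of the site, the exact match of the group lay at -727 bp and the lone exact match at 562 bp.

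**Figure D2:**
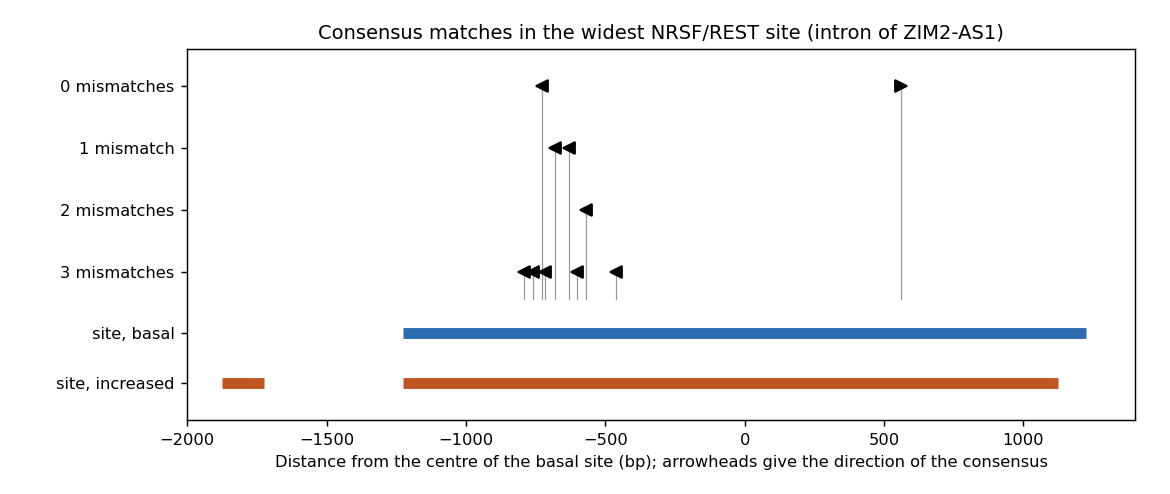
Consensus matches in the widest site by distance from its centre at basal dosage (bp), with the number of mismatches on the vertical axis and arrowheads for their direction; the bars show the extent of called sites at each dosage. A group of 9 minus-strand matches lies left of the centre, 1 exact plus-strand match lies at 562 bp, and a separate site of 149 bp was called to the left at increased dosage.

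Few sites anywhere held as many matches. At each dosage 3 sites held 5 matches and 1 held 4. Besides the ZIM2-AS1 site, those with 5 were chr11:66188801-66190599 (1799 bp, order number 3) and chr19:50490001-50491449 (1449 bp, order number 6) at basal dosage. The site with 4, on chromosome 4, had order number 9 in both lists. Over the whole list, sites with more matches had larger median widths. At basal dosage the median width was 199 bp over 3159 sites with no match, 499 bp over 2007 sites with 1, 749 bp over 136 sites with 2 and 1099 bp over 21 sites with 3 or more. The same medians at increased dosage were 199, 499, 699 and 1099 bp. These counts of matches per site were made after the widths were known, and they are given without a test.

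**Figure D3:**
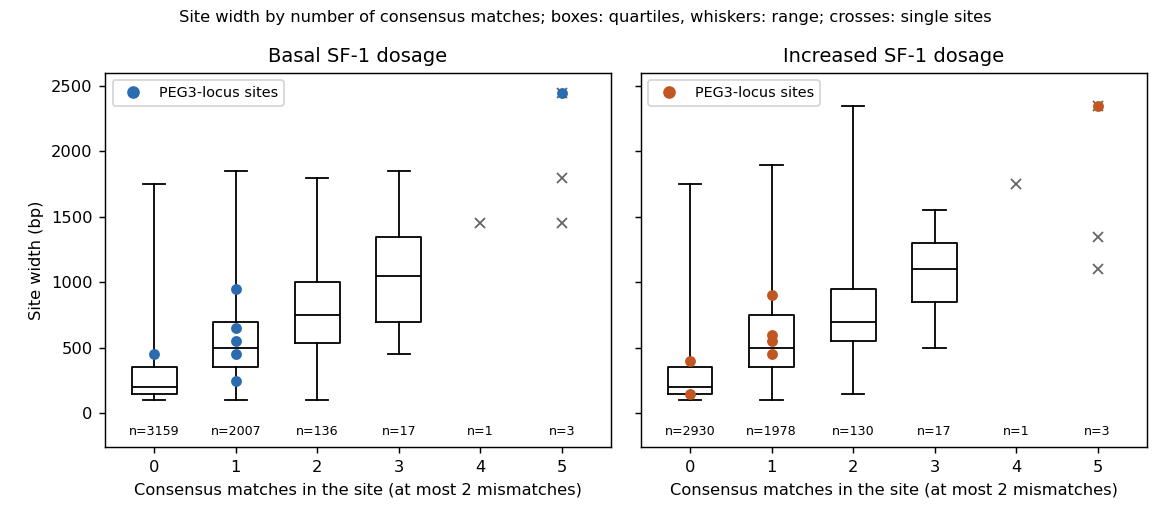
Site width (bp) against the number of consensus matches in the site, for all sites of each list (boxes, quartiles; whiskers, range; crosses, single sites where fewer than 10) and for the sites of the PEG3 locus (dots). The ZIM2-AS1 site with 5 matches is the widest at basal dosage at 2449 bp, and the other sites of the locus hold 1 match or none.

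The row of 5 sites in ZIM2-AS1 at basal SF-1 dosage began 53251 bp after the widest site and covered 40.15 kb. Its first site, chr19:57204701-57204949, was the narrowest of the locus in the basal list, with 249 bp and order number 3282. The next site, chr19:57217051-57217999, was the widest of the row. It measured 949 bp at basal dosage, where its width ranked 262 of 5323, and it had order number 505. At increased dosage it measured 899 bp and had order number 497. It was also the site of the row whose match had no mismatch.

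The remaining sites of the row were of intermediate width. The site at chr19:57229551-57230199 measured 649 bp at basal and 599 bp at increased dosage, and its order number was 1266 and 1346. The site at chr19:57233101-57233549 measured 449 bp at both dosages, with order numbers 1343 and 1349. The site at chr19:57244301-57244849 measured 549 bp at both, with order numbers 1046 and 1192. All 5 sites of the row lay in introns of ZIM2-AS1 and also in introns of a second non-coding gene, ENSG00000286125. All but the first were wider than the median of their list.

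**Figure D4:**
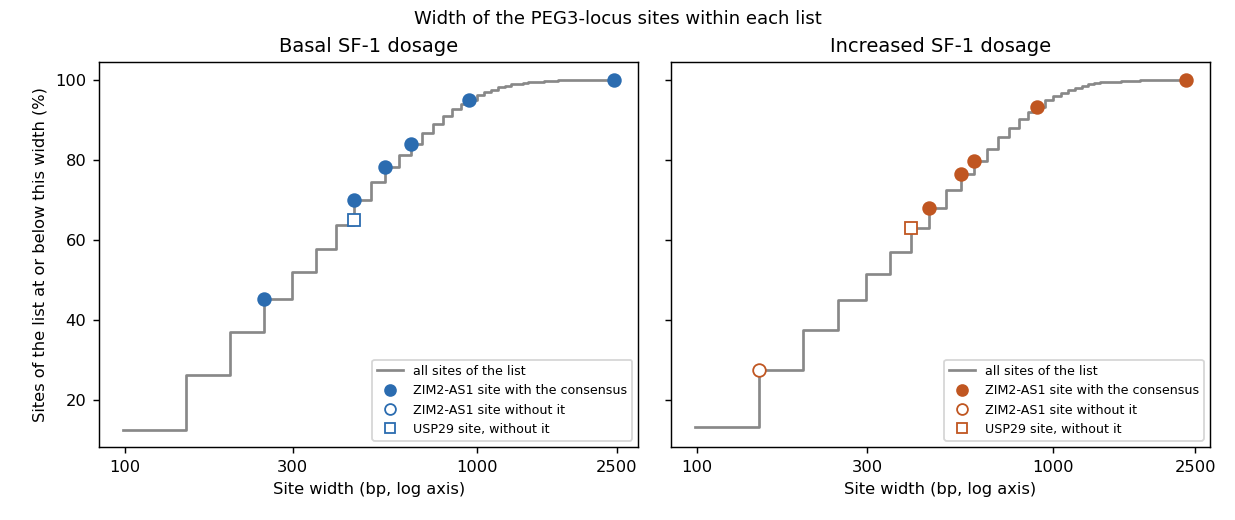
Width of each PEG3-locus site (bp, log axis) on the cumulative distribution of widths of all sites in the list (%), at basal and at increased dosage. The sites with the consensus at both dosages, from 449 bp upward, lie in the upper part of each curve, while the basal-only site of 249 bp and the increased-only site of 149 bp lie lower; at basal dosage the USP29 marker is set below the ZIM2-AS1 site of equal width.

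The USP29 site was the only site of the locus in a coding gene, and it was without the consensus, as was the increased-only site in ZIM2-AS1. It lay at chr19:57635201-57635649 at basal dosage (449 bp, order number 1501) and at chr19:57635251-57635649 at increased dosage (399 bp, order number 1694). Its near edge was 4.70 kb from the 5′ end of the gene at basal dosage and 4.75 kb at increased dosage. Of its bases 101, from 57635407 to 57635507, fell in an untranslated exon of 3 of the 4 annotated transcripts, and 0 fell in coding sequence, which begins 4394 bp after the site. It held no match to the consensus with up to 3 mismatches, and the left and right parts of the consensus did not occur together in it at any spacing of 0 to 20 bases with at most 1 mismatch each.

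Between the dosages, 6 of the 7 sites of the locus were shared in either direction, counted at an overlap of at least 1 bp. Over the whole lists 64.5% of basal sites overlapped a site at increased dosage, and 67.9% of the latter overlapped a basal site. The 6 include the widest site, for which the locus was chosen. No share was taken over sites of like width, so nothing is read from this count. Edges of the 6 shared sites moved by 0, 50 or 100 bp, that is by at most 2 steps of the list, and widths at increased dosage were 0.889 to 1 times those at basal dosage. None of the 6 was wider at increased dosage. No share of wider or narrower sites over all shared sites of the lists is given here, so nothing is read from this. The site called only at basal dosage was the first of the row, 249 bp wide. The site called only at increased dosage lay at chr19:57148351-57148499, also intronic in ZIM2-AS1, 501 bp before the start of the widest site. This increased-only site was 149 bp wide, had order number 3827 and held no match. Whether the reads at these 2 positions differed between the dosages cannot be seen from the lists.

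The NRSF/REST consensus was present in 6 of the 7 sites of the locus at basal SF-1 dosage, against 40.7% of all basal sites. At increased dosage it was present in 5 of 7, against 42.1% of all sites of that list. The difference of 1 between the dosages was the basal-only site, which holds a match, in exchange for the increased-only site, which does not. Both counts include the widest site, for which the locus was chosen. In the whole lists sites with a match were also wider, with a median of 499 bp for 1 match and 199 bp for none at each dosage. No share was taken over sites of like width, so nothing is read from these counts. Windows of the width of each site, placed 10 kb to either side, held a match in 0 of 14 cases at each dosage. These windows are few and short, and no share was taken over such windows elsewhere in the genome. Nothing is read from this count either. The SF-1 consensus, searched as CAAGGTCA, CAAGGACA and CAAGGCCA on both strands without mismatch, occurred in 0 of the 7 sites at either dosage, while 11.4% of all basal sites and 11.5% of all sites at increased dosage held it. Its absence says only that these letters are not in these windows.

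The locus was also read from the sequence, by asking how many of its matches lay in a called site. The 6 genes with 10 kb on either side cover 273.2 kb and 46.06 kb in a pair of separate regions, and they hold 20 matches with at most 2 mismatches. Of the 3 matches with no mismatch, 3 lay in a site at both dosages, where 74.5% of 816 such matches in the genome did at basal dosage and 74.8% at increased dosage. Of the 6 matches with 1 mismatch, 6 lay in a site at basal dosage and 5 at increased dosage. In the genome this was 12% of 8057 matches at basal and 11.9% at increased dosage. Of the 11 matches with 2 mismatches, 1 lay in a site, which was the widest site, against 0.887% of 87405 matches in the genome at basal and 0.85% at increased dosage.

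Since the widest site chose the locus, the same was counted without it. Outside it, 1 of 1 exact matches lay in a site at both dosages, and of the 4 matches with 1 mismatch 4 did at basal and 3 at increased dosage. None of the 10 remaining matches with 2 mismatches did. Of these 10 unoccupied matches, 1 lay in PEG3 and in the part of ZIM2 that overlaps it, at 57340854 on the minus strand, and 1 lay in ZIM3 at 57654994. These matches are few, and those within 1 site are not independent.

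**Figure D5:**
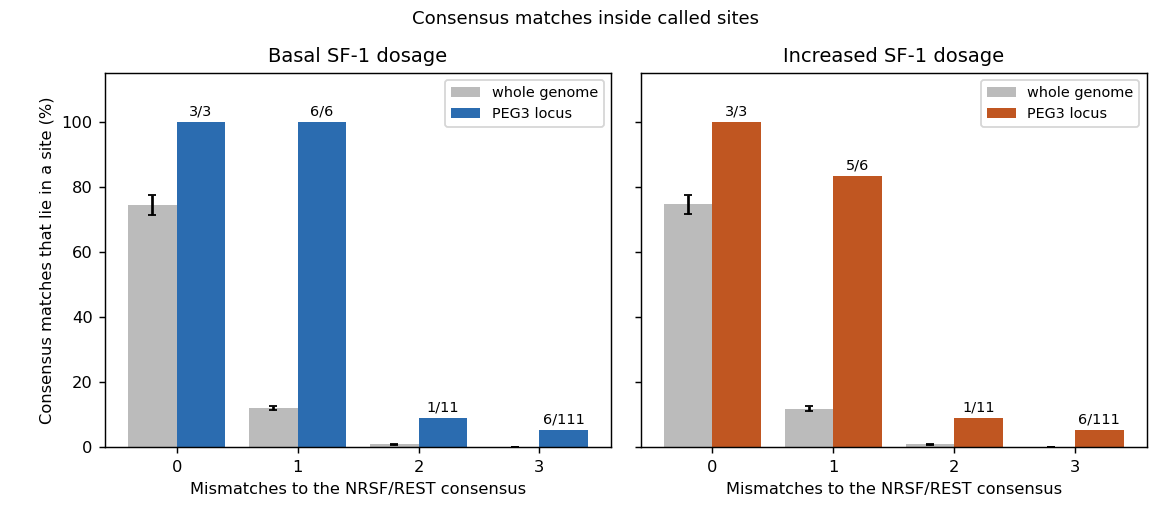
Share of consensus matches that lay in a called site (%) by number of mismatches, for the whole genome (grey, with 95% Wilson intervals for counting error) and for the PEG3 locus (coloured, with the counts printed). At the locus 3 of 3 exact matches lay in a site at both dosages. With 1 mismatch 6 of 6 did at basal and 5 of 6 at increased dosage, against 12% and 11.9% in the genome. These counts include the widest site, for which the locus was chosen. Outside it 1 of 1 exact matches lay in a site at both dosages. With 1 mismatch 4 of 4 did at basal and 3 of 4 at increased dosage. For matches with 1 mismatch followed by AA, as all 6 are, the genome share was 53.5% at basal and 53.3% at increased dosage.

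The bases next to the matches were alike. All 10 matches of the locus that lay in a basal site were followed by AA, as the printed sequences show, and of the 10 that did not, 1 was, the match at 57265606. This property was looked for after the sequences had been seen. In the genome, 430 of 803 matches with 1 mismatch that are followed by AA lay in a basal site (53.5%, 95% Wilson interval 50.1 to 57.0%), and 536 of the 7254 others did (7.39%, 6.81 to 8.01%). At increased dosage the corresponding shares were 53.3% and 7.27%. The 6 matches of the locus with 1 mismatch all belonged to the class followed by AA, so this class is the closer background for them.

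The sites of the row were related in sequence beyond the match itself. The 150 bp on either side of each match were aligned locally in pairs, and a pair was counted where at least 60 columns covered both matches in register. Of the 10 pairs among the 5 sites of the row 7 were counted (70%), with 61 to 226 columns and identities of 70.35 to 78.21%. Between these 5 sites and the 2158 basal sites with the consensus outside the locus, the widest site being left out with it, 9 of 10790 pairs were counted (0.0834%). The unoccupied match at 57265606 aligned in the same way with 3 of the 5 sites, over 142 to 210 columns and with identities of 71.6 to 72.54%. This comparison was also made after the sequences had been seen.

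Copies of a sequence elsewhere in the genome bear on how reads can be placed, and were counted as words of 32 bases that occur once. In the widest site 92.1% of words were unique at basal dosage and 91.8% at increased dosage, and the most repeated word had 63665 copies in the genome. In the site at chr19:57229551-57230199 the share was 70.9% at basal dosage, with up to 134 copies of a word. The other sites of the locus had 98.2% or more. Read length is not given in the sources used here, and the part of repeated sequence in the called widths was not tested.

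The 6 sites of ZIM2-AS1, among them the site for which the locus was chosen, correspond to 29.4 per Mb, and the 5 without it to 24.5 per Mb. At basal dosage 23 of 64449 genes held 6 or more sites, and 4 of these were no longer than ZIM2-AS1, namely ANKRD30BL, CDH22, MIR9-3HG and ZIM2-AS1 itself. At increased dosage 15 genes did, of which MIR9-3HG and ZIM2-AS1 were no longer than it. Set against the 5 sites left without the widest, 49 genes held as many or more at basal dosage and 34 at increased dosage, and 10 and 6 of these were no longer than ZIM2-AS1. Long non-coding genes of at least 100 kb had a site within the same reach in 28.5% of 1427 cases at basal dosage and in 25.6% at increased dosage. The number of sites and the span for a count of runs were set from the row after it had been seen, so the counts describe the row and support nothing. Runs of 5 sites within 40.15 kb, the span of the row, were counted 65 times in the basal list, and in 1 of them, the row itself, every site held the consensus. At increased dosage 4 sites of the row remained, within 27.8 kb. Such runs were counted 82 times, and every site held the consensus in 2 of them, the row and a run on chromosome 12 that begins at 108588151.

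The promoters searched held no match. The table of RefSeq promoters (GRCh38.p14) used here matched ZIM2-AS1 with 1 promoter and USP29 with 2, each 250 bases before to 50 after the start, and PEG3, ZIM2, ZIM3 and MIMT1 were not covered by this search. Of these promoters, 0 of 3 held the consensus, against 2.03% of 35116 promoters. The 5′ ends of the 6 members in the hg19 annotation, searched over the same lengths, held 0 matches as well. This says nothing about the binding of NRSF/REST beyond these letters in these windows.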

How the data were processed

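Binding of NRSF/REST was measured in 1 ChIP-seq library at each SF-1 dosage. Reads were aligned to hg19 by the authors using ELAND (the submitters' processing notes name CASAVA 1.6), and they deposited 1 list of sites per library, with start, end and order number, and a score that is 1000 throughout. The peak caller is described for SF-1 sites; its settings for these lists are not given in the sources used here. The labels and the methods differ in the unit of the doxycycline concentration. The deposited score gives no strength, no read count or depth is listed, and intervals cover counting error only.

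Starts were converted to a count from 1. Genes were those of GENCODE release 44 on hg19. The consensus was matched in the GRCh37 sequence with pysam 0.24.0 and numpy 2.4.6 under Python 3.11.15, intervals came from scipy 1.17.1, and flanks were aligned with Biopython 1.88 (match 2, mismatch -3, gap opening -5, gap extension -2). Promoter sequences came from RefSeq. On simulated data 200 of 200 planted matches, 400 of 400 overlaps and 21 of 21 split parts were recovered. Named genes were all 6 members, the other imprinted genes with the 6 widest sites and neighbours within 500 kb with a site in the gene; neither of the last gave a gene, and genes beside the members were named after their values were seen. The members and lists were chosen with earlier results of these data known. The share of repeat-masked bases was not computed because the reference sequence carries no masking.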

Additional observations from a re-analysis of the deposited data

How the results depend on the processing

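The 7 sites of the locus at each dosage remained 7 with a reach of 0 or 5 kb and by midpoint, became 8 and 9 at 50 and 100 kb, and were 6 among the widest 50% and among the first 50% by order number. Merging sites within 500 bp could not change the count, since the closest pair was 501 bp apart. Over the 12 values reported, 46 alternative values stayed within 1.5 times of them and 16 moved further. The 46 include this merging and the filters by width and by order number, which follow the value that chose the locus. The tally therefore supports nothing. With protein-coding members alone 1 site remained at each dosage, since ZIM2-AS1 holds the others. At a reach of 100 kb all 6 members had a site at both dosages. With no mismatch allowed, 2 sites of the locus held the consensus at each dosage. The share of the locus's matches that lay in a site, 50% at basal and 45% at increased dosage with at most 2 mismatches, was 100% at both with none, 100% and 88.9% with 1, and 12.2% and 11.5% with 3, as the set of matches changed. These shares include the widest site, for which the locus was chosen. Only 1 of the 3 exact matches lay outside it. In the genome at basal dosage 74.5% of exact matches lay in a site, 12% of those with 1 mismatch and 0.887% of those with 2. The share of genes with a site was 13.9% and 13.6% over coding genes and 5.22% at both dosages over the zinc finger genes of chromosome 19. No paired analysis was possible because there was 1 library per dosage, and no replicate could be left out. Depth is unknown, so a site called at 1 dosage alone cannot be said to be unbound at the other.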

Other observations

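Of 39 other imprinted genes on other chromosomes or elsewhere on chromosome 19, among them IGF2, H19, KCNQ1OT1, MEG3, SNRPN, PEG10 and GNAS, 0 had an NRSF/REST site in the gene or within 10 kb at either dosage, beside 8.48% of all genes at basal and 8.05% at increased dosage, and no test was made. The genes were picked from general knowledge of imprinting, and not every chromosome was covered. Several are neighbours, such as IGF2 and H19, so the 39 are not independent of each other. Of the members, PEG3, ZIM2 and MIMT1 also had no site within this reach, and their locus was chosen for one of its sites. The nearest sites to these genes lay 13.3 kb (SGCE) to 2023 kb away at basal dosage, with a median of 327.9 kb, and 13.3 to 1863 kb away at increased dosage, with a median of 327.8 kb. NNAT, a gene of the developing brain named here after its value was seen, was 49.0 kb from its nearest site at basal dosage. SGCE, NLRP2, GRB10 and BLCAP were closer to a basal site, at 13.3, 33.7, 36.6 and 38.9 kb.

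Within 500 kb of the members, 3 further sites were called at each dosage, all intergenic and all shared. The site at chr19:56678301-56678949, 6.04 kb from ZNF444, measured 649 bp at both dosages and held 1 consensus match. The site at chr19:57580501-57580899 lay between MIMT1 and USP29, measured 399 bp at both and held none. The site at chr19:57454201-57454399 measured 199 bp at basal and 149 bp at increased dosage, held none, and had the highest GC content of the 3, 63.3% at basal dosage, against a median of 45.5% over all basal sites.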
